A study of Homo sapiens with 4 samples.

Results

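Solute carriers (SLC) are membrane proteins that move nutrients, metabolites, metals and ions across cellular membranes without spending ATP directly. The mRNAs examined here are those whose gene name in the deposited m7G peak lists of HepG2 cells begins with SLC and a digit, with SLC7A5 set aside. Across the lists 76 SLC genes had a peak, among 3769 genes in all. There were 70 SLC peaks, from 52 genes, in replicate 1 (of 3355 peaks, from 2511 genes). The replicate 2 list was longer, with 101 SLC peaks from 63 genes (of 4747 peaks, from 3205 genes). The genes fell into 30 numbered subfamilies. HepG2 is an untreated human hepatocellular carcinoma line. Its poly(A) RNA was sequenced after immunoprecipitation (IP) with an antibody against N7-methylguanosine (m7G; 2 samples, described here as replicates 1 and 2) and without it (input, 2 samples, not analysed here). The labels do not say whether the replicates came from separate cultures, so the spread between them may be technical.

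N7-methylguanosine is best known as the cap at the start of mRNAs, and it also occurs inside mRNA, tRNA and rRNA. The authors' lists give stretches of mRNA enriched in the IP, called peaks, each with a fold enrichment and a p-value. SLC subfamilies are numbered by sequence relationship, and members of a subfamily often share a substrate class: SLC7 proteins exchange amino acids, SLC25 proteins carry metabolites across the inner mitochondrial membrane, and SLC39 proteins bring zinc and other metals into the cytosol. The lists give no expression level, so a gene without a peak may lack m7G or lack mRNA. Of 18 hepatocyte markers, 8 had a peak, each in both lists, among them APOA1, APOE and SERPINA1. Of 6 immune markers CD68 and LYZ had peaks, and of 6 endothelial or stellate markers ACTA2 had one. Read depth is unknown from the lists, so no counting error can be put on a single fold.

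Part or all of the first 50 transcribed bases of 9 SLC genes lay in a peak in both lists. The sequences around these starts are shown because they are where the mRNA's cap would sit. A peak need not include the first bases: it began 33 nt past the start in SLC35E1 in both lists and 38 nt past it in SLC20A1 in replicate 2, downstream of the bases printed in capitals. Each sequence below, from RefSeq (GRCh38.p14), runs 5′ to 3′ on the gene's own strand. It holds 50 bases before the annotated start in lower case and the first 30 transcribed bases in capitals. They lie at chr2:27212239-27212318 (minus strand) for SLC5A6, chr13:29595659-29595738 (minus) for SLC7A1, chr11:107858758-107858837 (minus) for SLC35F2, chr19:16572386-16572465 (minus) for SLC35E1, chr16:67968608-67968687 (minus) for SLC12A4, chr2:112645889-112645968 (plus) for SLC20A1, chr22:19178707-19178786 (minus) for SLC25A1, chr7:5282893-5282972 (plus) for SLC29A4 and chr16:2026852-2026931 (plus) for SLC9A3R2, now named NHERF2.
SLC5A6: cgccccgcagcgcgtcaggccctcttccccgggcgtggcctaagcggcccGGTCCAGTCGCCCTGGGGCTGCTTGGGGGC
SLC7A1: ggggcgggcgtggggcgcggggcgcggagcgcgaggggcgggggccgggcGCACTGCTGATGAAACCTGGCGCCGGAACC
SLC35F2: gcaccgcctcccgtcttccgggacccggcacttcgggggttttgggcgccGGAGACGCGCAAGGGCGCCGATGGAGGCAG
SLC35E1: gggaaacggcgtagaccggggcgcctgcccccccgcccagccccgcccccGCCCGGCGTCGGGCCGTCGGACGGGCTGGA
SLC12A4: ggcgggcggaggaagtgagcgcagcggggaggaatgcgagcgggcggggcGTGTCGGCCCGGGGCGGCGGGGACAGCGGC
SLC20A1: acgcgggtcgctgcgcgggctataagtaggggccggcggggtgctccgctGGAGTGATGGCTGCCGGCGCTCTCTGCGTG
SLC25A1: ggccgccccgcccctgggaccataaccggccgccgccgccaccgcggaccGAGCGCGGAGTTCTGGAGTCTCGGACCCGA
SLC29A4: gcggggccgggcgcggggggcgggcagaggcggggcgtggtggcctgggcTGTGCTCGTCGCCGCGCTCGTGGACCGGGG
SLC9A3R2: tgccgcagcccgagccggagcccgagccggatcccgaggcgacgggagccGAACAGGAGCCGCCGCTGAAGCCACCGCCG

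The peaks of SLC5A6, SLC7A1, SLC35F2 and SLC9A3R2 covered all of the first 50 transcribed bases in both lists. The SLC7A1 peak, in the mRNA of a cationic amino acid transporter, began exactly at the annotated start in each list. The SLC35E1 peak covered the last 17 of these 50 bases in both lists. Coverage differed between the lists in SLC12A4 (47 bases in replicate 1 and all 50 in replicate 2), SLC29A4 (33 and 50), SLC25A1 (30 and 50) and SLC20A1 (42 and 12). In a single list, peaks also covered part or all of the first 50 transcribed bases of other SLC genes. In replicate 1 these were SLC25A6 (50 bases) and SLC18B1 (21). In replicate 2 they were SLC2A1, SLC6A9 and SLC25A42 (50 each), SLC25A10 (39), SLC9A3R1 (36), SLC38A2 (19), SLC25A38 (6) and SLC39A7 (1). These 19 starts, taken in if a peak covered any of the 50 bases, were rich in G and C. Their first 50 transcribed bases had a median of 72% GC, against 70% at the 4376 starts of all genes with a peak and 60% at all 34961 starts. The GC box GGGCGG, searched on both strands of the window from 250 bases before to 50 bases after the start, occurred at 16 of the 19 starts (84.2%). It occurred at 70.1% of the 77 other starts of SLC genes with a peak, 51.6% of the 320 starts of SLC genes without one, 73.8% of the starts of all genes with a peak and 45.0% of all starts. The letters TATAAA, searched the same way, occurred at 1 of the 19 starts (5.26%), that of SLC2A1. They occurred at 3.90% of the other starts of SLC genes with a peak, 10.3% of the starts of SLC genes without one, 4.57% of the starts of all genes with a peak and 11.5% of all starts.

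Among these 76 names, 39 had a peak in both lists. That is 51.3% (95% Wilson interval 40.3 to 62.2%), beside a background of 51.7% over all 3769 genes. Another 13 genes had peaks in replicate 1 only and 24 in replicate 2 only. The 39 genes made up 75% of the SLC genes of replicate 1 and 61.9% of those of replicate 2. In 38 of them at least 1 peak lay at the same site in both lists, by an overlap of at least 50% of the shorter peak. The exception was SLC38A2, a sodium-coupled neutral amino acid transporter. Its replicate 1 peak of 61 nt (fold 1.11, chr12:46371313-46371373) only touched the edge of its spliced replicate 2 peak of 241 nt (fold 1.61, chr12:46371373-46372742), which lay at the 5′ end. Set against annotation, 73 of 385 protein-coding SLC genes of the RefSeq table had a peak in either list (19.0%), beside 3759 of all 20056 protein-coding genes (18.7%). The share was 17 of 48 for SLC25 (35.4%), 6 of 14 for SLC39 (42.9%) and 3 of 9 for SLC12, and it was 3 of 19 for SLC6 (15.8%), 5 of 31 for SLC35 (16.1%) and 2 of 21 for SLC22 (9.52%). The lists hold 3 SLC22 names, but SLC22A18 is named SLC67A1 in the RefSeq table and is not counted under SLC22 there. The SLC35 count likewise leaves out 1 of the 6 SLC35 names of the lists. These shares mix expression with m7G, and no test was made of them.

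**Figure D1:**
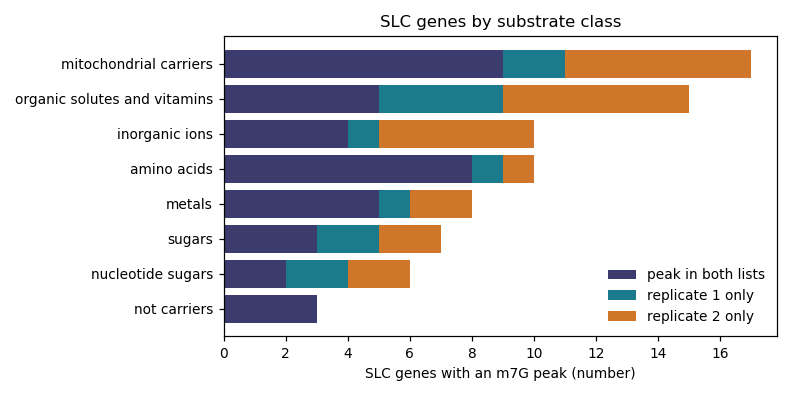
SLC genes with an m7G peak in either list, by substrate class (rows) and number of genes (x axis); colours show a peak in both lists, in replicate 1 only or in replicate 2 only. Amino acid transporters had 8 of 10 genes in both lists, mitochondrial carriers 9 of 17, and genes for organic solutes and vitamins 5 of 15.

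Amino acid transporters were found in both lists for 8 of their 10 genes. SLC1A5, a neutral amino acid exchanger that carries glutamine, had 3 peaks in replicate 1 with folds of 1.67, 3.74 and 1.74 from 5′ to 3′. In replicate 2 the same sites had folds of 1.54, 4.35 and 1.58, and a spliced peak with a fold of 1.40 was added. The middle site, chr19:46787658-46787867 in replicate 1, thus had the highest fold in both lists. By −log10 p the site nearest the 5′ end ranked above it, at 33.2 against 16.2 in replicate 1 and 24.4 against 24.2 in replicate 2. SLC7A1 had folds of 5.56 in replicate 1 and 5.57 in replicate 2. SLC6A8, the creatine transporter, had a peak with the same edges in both lists, chrX:153688297-153688567, with folds of 5.08 and 9.84. SLC7A11, the light subunit of the cystine and glutamate exchanger, had a shared peak with folds of 4.45 and 4.84 and a further replicate 1 peak with a fold of 5.56. Its heavy subunit SLC3A2 had lower folds of 1.95 and 2.12. SLC38A10 had 2 shared peaks, with folds of 4.36 and 3.61 at the one nearer the 3′ end and 2.23 and 2.66 at the other, and SLC38A5 had folds of 2.70 and 3.24 near its 3′ end. Found in only 1 list were SLC6A14 (replicate 1, fold 1.80) and the glycine transporter SLC6A9, with 3 peaks in replicate 2 (folds 4.74, 3.65 and 2.60 from 5′ to 3′).

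Sugar transporter subfamilies held 7 genes, 3 of them in both lists. SLC5A6 belongs by number to the sodium and glucose cotransporters, but carries biotin and pantothenate. Its peak had the smallest p-values of all SLC peaks, with a −log10 p of 173 in replicate 1 and 103 in replicate 2, and folds of 16.0 and 10.5. On the opposite strand the neighbouring gene ATRAID had a peak at chr2:27212031-27212420 in replicate 1 (fold 19.2, −log10 p 145), and one that ended at 27212390 in replicate 2 (fold 14.6, −log10 p 80). In each list 277 bases lay in both peaks. The libraries were made with a stranded kit, but the use of strand in counting is not given in the sources used here, so the reads behind the SLC5A6 and ATRAID peaks cannot be told apart. No other SLC peak overlapped a peak of another gene. SLC2A1, the main glucose transporter of many cells (GLUT1), had folds of 1.88 and 2.16 at its 5′ end, and SLC2A8 had 2.83 and 2.21. In 1 list only were SLC2A9, a urate transporter (replicate 1, fold 3.58), SLC50A1 (replicate 1, 3.58), SLC37A4, the glucose 6-phosphate transporter of the endoplasmic reticulum (replicate 2, 3.58), and SLC45A3 (replicate 2, 9.49).

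Mitochondrial carriers of the SLC25 subfamily were the most numerous, with 17 genes, of which 9 had peaks in both lists. The highest folds at shared peaks were those of SLC25A25, a carrier of ATP-magnesium and phosphate (6.49 in replicate 1 and 8.13 in replicate 2 at chr9:128068290-128068440, with the same edges in both, and a further replicate 2 peak of 3.51), and of the dicarboxylate carrier SLC25A10 (4.53 and 8.96). The iron transporter SLC25A28 had 4.08 and 7.73, the basic amino acid carrier SLC25A29 had 5.30 and 5.35, and the ornithine carrier SLC25A15 had 3.90 and 5.84. Low folds were measured in the citrate carrier SLC25A1 (2.06 and 2.23), the glutathione carrier SLC25A39 (1.63 and 1.58) and the phosphate carrier SLC25A3 (1.56 and 1.30). SLC25A6, an ADP/ATP carrier, had a peak of 386 nt in replicate 1 and 446 nt in replicate 2, with folds of 2.42 and 2.41 and −log10 p values of 74.8 and 72.8. Its second site, nearer the 5′ end, had folds of 1.58 and 1.22. SLC25A6 lies in the pseudoautosomal region, with a copy on each sex chromosome. It has a close relative in SLC25A4, another ADP/ATP carrier, which had a replicate 2 peak with a fold of 2.14, and reads of near-identical stretches may be split between such genes. The carriers found in replicate 1 only were SLC25A22 (fold 2.85) and SLC25A32 (4.53). Those of replicate 2 only included the coenzyme A carrier SLC25A42 (9.94, 4.52 and 3.28 at 3 peaks), SLC25A43 (7.03), SLC25A38 (4.92), SLC25A23 (3.89) and SLC25A4.

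Metal transporters had 5 of 8 genes in both lists. SLC39A5, a zinc importer, had folds of 3.53 in replicate 1 and 6.07 in replicate 2 at a spliced peak near its 3′ end, and a further replicate 2 peak with a fold of 2.83. The zinc transporter SLC30A5, which loads zinc into the secretory pathway, had 2.84 and 3.46, and SLC39A3 had 2.80 and 3.16. A second replicate 2 peak of SLC39A3, with a fold of 1.88, overlapped the same replicate 1 peak. SLC39A14, which brings zinc, iron and manganese into cells, had 2.04 and 2.27, and SLC39A7, which releases zinc from the endoplasmic reticulum, had 1.98 and 1.69 at its shared site and 2.22 at a second site in replicate 2. The heme transporter SLC48A1 had a peak in replicate 1 only (5.12). SLC39A11 (12.7) and SLC39A4 (2.42 and 1.56 at 2 peaks) had peaks in replicate 2 only. The fold of SLC39A11, at a peak of 4 blocks that began 64 nt past its annotated start, was the second highest of the SLC peaks of replicate 2. The −log10 p of this peak was 5.79, beside an SLC median of 5.24 in that list.

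Transporters of inorganic ions had 4 of 10 genes in both lists, and they included the highest SLC fold of each list. SLC12A9, a member of the cation and chloride cotransporters, had a fold of 22.3 in replicate 1 at chr7:100865998-100866356 and of 8.22 at the same site in replicate 2, a 2.71-fold difference. The −log10 p at this site was 6.46 and 6.16, beside SLC medians of 6.3 and 5.24. Replicate 2 held 2 more SLC12A9 peaks, with folds of 5.75 and 7.38. SLC12A4, a potassium and chloride cotransporter, had folds of 7.42 and 15.8 at its 5′ end, in the opposite order, and 1 peak in each list near its 3′ end that did not overlap (3.18 and 6.33). The −log10 p of the SLC12A4 peak at the 5′ end was 4.81 in replicate 1 and 9.17 in replicate 2. The value 7.42 was the commonest fold of replicate 1, held also by 106 peaks outside the SLC names. The value 6.33 was that of replicate 2, held also by 194 such peaks. Why these folds recur was not tested. The anion exchanger SLC4A2 had a shared peak with folds of 1.92 and 3.90, and the phosphate transporter SLC20A1 had 3.39 and 1.92 at its 5′ end. SLC9B2 was found in replicate 1 only (3.4). Those of replicate 2 only included SLC26A11 (6.33), the sodium and proton exchanger SLC9A3 (5.62), SLC20A2 (4.64 and 3.29, from 5′ to 3′) and SLC12A7 (2.94 and 3.69).

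Carriers of organic solutes and vitamins had 5 of 15 genes in both lists. SLC29A4, which carries monoamines, had folds of 4.01 in replicate 1 and 10.3 in replicate 2 at a spliced peak at its 5′ end, and 1.60 and 1.58 at a second site. SLC27A4, a fatty acid transport protein with acyl-CoA synthetase activity, had 4.24 and 4.95. SLC16A3, a lactate exporter (MCT4), had 3 peaks in each list at the same sites, with folds from 5′ to 3′ of 2.80, 1.39 and 2.14 in replicate 1 and 2.08, 1.32 and 2.80 in replicate 2. SLC22A31 had 4.45 and 3.69 at 1 shared site and 1.70 and 1.51 at another, with another peak between them in replicate 2 (2.09). SLC17A9, which loads ATP into vesicles, had 2.07 and 1.88 at its shared site. In replicate 1 only were the polyamine transporter SLC18B1, with a fold of 14.8 at its 5′ end, the folate transporter SLC46A1 (4.64), the nucleoside transporter SLC29A1 (3.56) and SLC22A18 (3.30). The −log10 p of the SLC18B1 peak was 5.19, beside an SLC median of 6.3 in replicate 1. In replicate 2 only were SLC10A3 (4.64 and 3.51), SLC16A10 (4.52), SLC13A3 (3.56), SLC29A3 (3.16), the reduced folate carrier SLC19A1 (2.56 and 3.16) and SLC22A23 (2.22 and 3.03).

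The subfamily SLC35 was classed under nucleotide sugars by its number alone. The substrates of its members were not checked, so these names are not taken as nucleotide sugar transporters. It had 2 of its 6 names in both lists, SLC35E1 (8.90 and 5.95) and SLC35F2 (6.23 and 3.80), and both shared peaks lay at the 5′ end. SLC35F6 (4.15) was in replicate 1 only, and SLC35B2, which carries the sulfate donor PAPS into the Golgi, was in replicate 2 only (1.83). SLC35E2 in replicate 1 (4.12, at the place of SLC35E2A in the RefSeq table) and SLC35E2B in replicate 2 (3.80) are names of closely related copies, so their reads may not be told apart. The name pattern also took in 3 genes that are not carriers. SLC9A3R1 and SLC9A3R2, now NHERF1 and NHERF2, encode scaffolds that bind carriers, and SLC2A4RG encodes a zinc finger protein. All 3 had peaks in both lists. SLC9A3R2 had folds of 8.66 and 5.54 at its 5′ end and SLC2A4RG had 8.04 and 4.80 there, while the shared sites of SLC9A3R1 had folds from 1.30 to 2.31.

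At the level of sites, 50 of 70 SLC peaks of replicate 1 (71.4%, 95% Wilson interval 59.95 to 80.7%) lay at a site shared with replicate 2, beside 65.1% of all peaks. In replicate 2 the count was 51 of 101 (50.5%, 40.9 to 60.05%), beside 45.4% of all peaks. Matched peak to peak, they formed 49 pairs in 38 genes. The folds of a pair ranked together across the lists (Spearman's rho 0.886 over 49 pairs, against 0.799 over all 2128 pairs, a description, since several pairs come from 1 gene). Folds lay within 1.5 times of each other in 36 SLC pairs (73.5%), against 72.6% of all pairs, and differed by more than 2 times in 4 (8.16%), against 10.8%. These 4 were SLC12A9, higher in replicate 1, and SLC29A4, SLC12A4 and SLC4A2, higher in replicate 2. Replicate 1 was higher in 24 pairs and replicate 2 in 25, so neither list gave higher SLC folds throughout. SLC peaks found in a single list had larger p-values, shorter lengths and somewhat higher folds. The median −log10 p of shared SLC peaks was 8.45 in replicate 1 and 7.52 in replicate 2, against 3.93 and 4.18 for SLC peaks of a single list. Median lengths were 208.5 and 211 nt for shared SLC peaks, against 105.5 and 120 nt for those of a single list, and median folds were 2.815 and 2.80, against 3.48 and 3.285. Other genes showed the same for p-values (median −log10 p 6.92 and 7.93 at shared peaks, against 4.2 in each list) and lengths (181 and 210 nt, against 119 and 120 nt). Their folds were close to equal, at 3.74 and 3.95 for shared peaks, against 3.71 and 3.84.

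**Figure D2:**
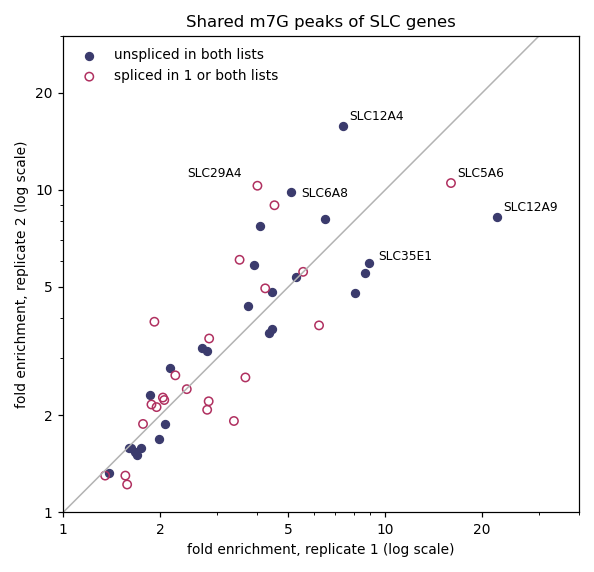
Fold enrichment of the 49 shared SLC peaks in replicate 1 (x axis) and replicate 2 (y axis), both on log scales, with the line of equality; filled points are unspliced in both lists and open points are spliced in 1 or both. The points follow the line (rho 0.886), and SLC12A9 (22.3 and 8.22) and SLC12A4 (7.42 and 15.8) lie far from it on opposite sides.

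The folds of SLC peaks were on the whole lower than those of other peaks. The median was 3.28 in replicate 1 (interquartile range 1.96 to 4.45), against 3.74 (2.40 to 5.77) for the 3285 other peaks. In replicate 2 it was 3.16 (2.09 to 4.84), against 3.885 (2.64 to 5.87) for 4646 other peaks. The mean of the 2 medians was 3.22 ± 0.085 for SLC peaks and 3.81 ± 0.10 for other peaks (SD, n = 2 each), so the gap was wider than the spread between the lists. That spread is not an error on the gap, since the lists share many peaks and several peaks can come from the same gene. Peaks are not replicates of a condition, and no test of this difference was made. The highest SLC folds were 22.3 (SLC12A9) and 15.8 (SLC12A4), against 66.8 and 122 among other peaks. At shared sites the SLC medians of 2.815 and 2.80 stood against 3.74 and 3.95 for other shared peaks. The p-values did not follow the folds: the median −log10 p of SLC peaks was 6.3 in replicate 1 and 5.24 in replicate 2, against 5.49 and 5.07 for other peaks. Across SLC peaks, −log10 p ranked with length (rho 0.814 over 70 peaks and 0.764 over 101) and hardly with fold (−0.169 and −0.0626). Other peaks gave similar values, 0.833 and 0.811 with length and 0.044 and 0.137 with fold. The lowest mean folds at shared SLC sites were those of SLC9A3R1 (1.35 and 1.30), SLC16A3 (1.39 and 1.32 at its middle site), SLC25A6 (1.58 and 1.22), SLC25A3 (1.56 and 1.30) and SLC29A4 (1.60 and 1.58 at its second site).

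**Figure D3:**
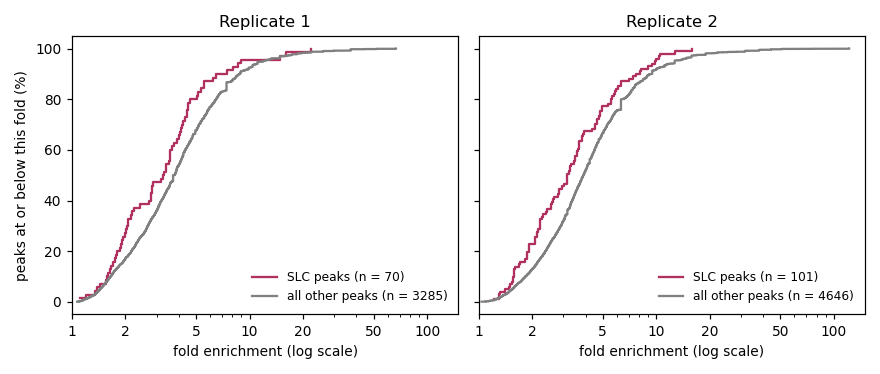
Share of peaks (y axis, %) at or below a given fold enrichment (x axis, log scale) for SLC peaks (70 and 101) and all other peaks (3285 and 4646) in replicate 1 (left) and replicate 2 (right). The SLC curve lies to the left of the other curve around the middle of both panels, at medians of 3.28 against 3.74 and 3.16 against 3.885.

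A peak was placed at the 5′ end where its midpoint fell no more than 200 nt from the 5′ limit of the gene in RefSeq, or beyond it. This held for 15 of 70 SLC peaks of replicate 1 (21.4%, 95% Wilson interval 13.4 to 32.4%), beside 27.4% of all placed peaks. In replicate 2 the count was 21 of 101 (20.8%, 14 to 29.7%), beside 21.6%. Both background shares lie within the SLC intervals. At the 3′ end the counts were 3 in each list, and they included SLC38A5 in both. In 13 of the 49 shared pairs (26.5%) both peaks lay at the 5′ end, against 26.6% of all pairs. They included SLC12A4, SLC25A25, SLC35E1, SLC25A10, SLC7A1, SLC25A29 and SLC35F2. The SLC peaks at the 5′ end had higher median folds than the other SLC peaks, 5.56 against 2.80 in replicate 1 and 4.80 against 3.095 in replicate 2; among peaks of other genes the medians were 4.95 against 3.42 and 4.92 against 3.61. The midpoint rule misses spliced peaks that begin at the start and jump a long intron. In SLC25A42 the replicate 2 peak began 3 nt before the annotated start, but its midpoint lay 32116 nt downstream, past an intron. The SLC5A6 peak, which covered an annotated start, had its midpoint 659 and 644 nt from the limit of the gene and was not counted either. With the peak's own 5′ edge in place of its midpoint, the SLC shares were 30% in replicate 1 and 27.7% in replicate 2, against 36.5% and 30.8% of other peaks; the genes added included SLC1A5, SLC27A4 and SLC30A5 in both lists.

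Most SLC genes had 1 peak. In replicate 1, 39 genes had 1 peak, 8 had 2 and 5 had 3, a mean of 1.35 peaks per gene, against 1.34 for other genes. In replicate 2, 37 genes had 1 peak, 17 had 2, 6 had 3 and 3 had 4, a mean of 1.60, against 1.48. The genes with 4 peaks in replicate 2 were SLC1A5, SLC2A4RG and SLC9A3R1, and each of them had 3 peaks in replicate 1. SLC16A3 had 3 in both lists. SLC4A2 had 3 in replicate 1 and 2 in replicate 2, because the first 2 replicate 1 peaks (299 and 61 nt) were spanned in replicate 2 by a single peak of 628 nt in 4 blocks. SLC12A9, SLC22A31, SLC6A9, SLC25A42 and SLC9A3R2 reached 3 peaks in replicate 2 only.

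**Figure D4:**
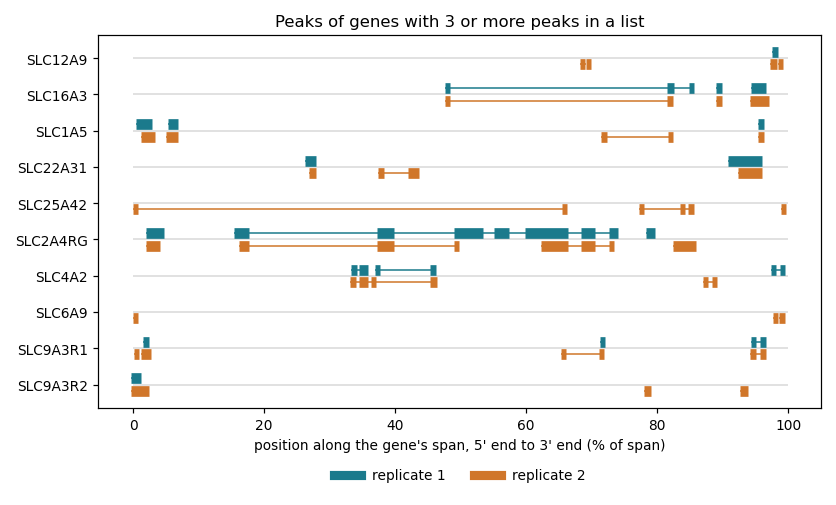
Peaks of the 10 SLC genes with 3 or more peaks in a list, drawn along each gene's annotated span from its 5′ end (0%) to its 3′ end (100%); thick bars are exon blocks (drawn at least 0.8% wide), thin lines the introns joined within a peak, upper rows replicate 1 and lower rows replicate 2. SLC1A5 and SLC16A3 show the same 3 sites in both lists, and the SLC2A4RG peak of 930 nt in 7 blocks in replicate 1 is split into 2 peaks in replicate 2.

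The median length of SLC peaks, summed over their blocks, was 179.5 nt in replicate 1 (interquartile range 120 to 240) and 150 nt in replicate 2 (91 to 238), against 151 nt for other peaks in both lists. The mean of the medians was 164.8 ± 20.9 nt for SLC peaks (SD, n = 2), so the gap to 151 nt was smaller than the spread between the lists. Lengths ranged from 60 nt to 930 nt in replicate 1 and to 652 nt in replicate 2, and 88.6% and 89.1% of SLC peaks had a length within 1 nt of a multiple of 30, as did 88.8% and 90.1% of other peaks. The longest shared peaks by mean length were those of SLC2A4RG (930 nt in replicate 1 and 301 nt in replicate 2), SLC16A3 (504 and 652 nt, chr17:82238819-82239322 in replicate 1), SLC4A2 (299 and 628 nt), SLC25A6 (386 and 446 nt) and SLC39A3 (475 and 297 nt). The SLC39A3 peak of replicate 1 also overlapped a second replicate 2 peak, of 179 nt. Of the 49 pairs, 4 had the same edges in both lists (SLC25A25, SLC6A8, SLC1A5 at chr19:46775392-46775511 and SLC16A3 at chr17:82237656-82237715), and another 21 shared an edge. By class, amino acid transporters had median lengths of 181 nt in replicate 1 and 238 nt in replicate 2 and metal transporters of 224.5 and 208 nt, and mitochondrial carriers of 151 and 150 nt. All 11 SLC peaks of 300 nt or more in replicate 1 were shared, as were 9 of 10 in replicate 2, while 7 of 17 and 6 of 26 peaks under 100 nt were. Other peaks showed the same pattern, with 436 of 444 and 565 of 636 shared at 300 nt or more and 346 of 905 and 211 of 1263 shared under 100 nt.

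**Figure D5:**
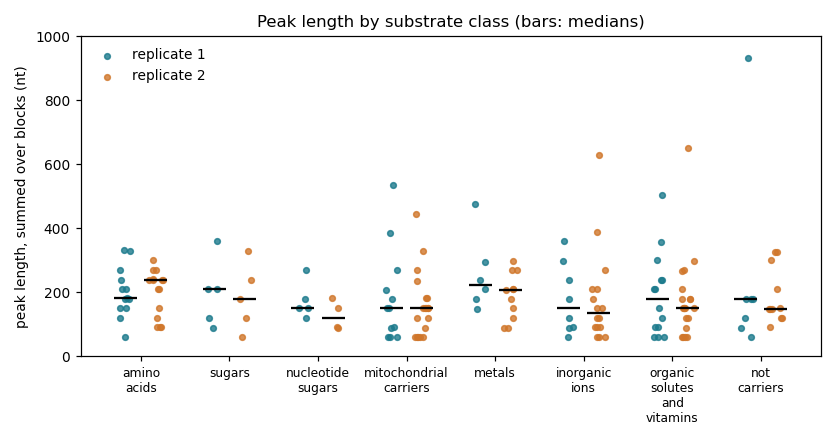
Peak length in nt, summed over blocks (y axis), of every SLC peak by substrate class (x axis) in replicate 1 (left of each pair) and replicate 2 (right); bars are medians. The highest point is the peak of SLC2A4RG in replicate 1 (930 nt), and mitochondrial carriers have medians of 151 and 150 nt.

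Spliced peaks, which join more than 1 exon block, made up 23 of 70 SLC peaks in replicate 1 (32.9%, 95% Wilson interval 23.0 to 44.5%), beside 26.4% of all peaks, and 38 of 101 in replicate 2 (37.6%, 28.8 to 47.4%), beside 28.2%. The background lay inside the interval in replicate 1 and just below it in replicate 2. The interval treats peaks as independent, but several came from the same gene, so it is too narrow to read this difference from. The mean share was 35.2 ± 3.37% for SLC peaks and 27.1 ± 1.21% for other peaks (SD, n = 2 each), a description with no test. Most had 2 blocks, 19 in replicate 1 and 33 in replicate 2. SLC2A4RG had the most blocks, 7 in replicate 1, and SLC39A11 and SLC4A2 had 4 in replicate 2. Both peaks were spliced in 16 of the 49 pairs and 1 of them in another 7. The widest shared spliced peaks spanned 42872 nt in replicate 1 and 42842 nt in replicate 2 in SLC35F2, 37583 and 37495 nt in SLC39A14, 8306 and 7720 nt in SLC16A3, and 4932 and 5022 nt in SLC29A4. Next came SLC5A6 (4521 and 815 nt) and SLC27A4 (2498 and 2557 nt), whose order differed between the lists. In SLC7A1 and SLC2A1 the peak was spliced in replicate 1, over 41886 and 15522 nt, but unspliced in replicate 2. Spliced SLC peaks had lower median folds than unspliced ones, 2.80 against 3.56 in replicate 1 and 2.59 against 3.30 in replicate 2; among other peaks the medians were 3.36 against 3.895 and 3.72 against 3.98.

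Transporters outside the SLC names were set beside them by lists. The background is the 18.7% of all protein-coding genes that had a peak in either list and the 9.67% that had one in both. Nothing is read from a short list with 0 peaks at these shares. Of 29 ATP-binding cassette transporters, which pump solutes with ATP, 8 had a peak in either list and 2 in both, ABCC3 (highest folds 5.77 in replicate 1 and 4.69 in replicate 2) and ABCA7 (5.14 and 5.27, at different sites). Of 20 P-type ATPases, 7 had a peak and 5 had one in both lists. They included the calcium pump ATP2A2 (12.1 and 16.6) and the sodium pump subunits ATP1B1 (2.06 and 1.37) and ATP1B3 (2.77 and 2.58), of the pump that maintains the gradients that many SLC proteins use. Of 11 organic anion transporting polypeptides (SLCO genes, which the name pattern does not take in), 0 had a peak. Of 12 partners and regulators of carriers, 8 had a peak and 7 had one in both lists. NHERF1 and NHERF2 are counted in each of these numbers, although the name pattern had already taken them in as SLC9A3R1 and SLC9A3R2. Their peaks were known beforehand, so these counts are not set against the background. The other partners with a peak in both lists were BSG, the chaperone of lactate transporters (highest folds 1.57 and 1.61), the ubiquitin ligase NEDD4L (4.85 and 4.25) and the kinases WNK1 (2.26 and 3.49), OXSR1 (6.60 and 5.42, at different sites) and STK39 (2.33 and 2.55). The 5 hepatocyte carriers SLC10A1, SLC2A2, SLC27A5, SLC13A5 and SLC38A4, chosen after the lists were seen, had 0 peaks in either list.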

How the data were processed

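The authors' peak lists of the 2 m7G IP samples were analysed, 1 list per sample, per the labels. The build GRCh38 and the aligner STAR come from the submitters' processing notes, which give them no role; the peak caller is not given in the sources used here. Per the file headers, the authors deposited for each peak its position, strand, blocks, p-value, the log10 p and log10 FDR (used here as a score; the log10 p matched the p-value within 0.02) and a fold enrichment. This fold is a ratio that the authors computed for each peak, per the file headers; the libraries in it are not named.

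Members, gene lists and measures were chosen with earlier results of these data known. Class was taken from the subfamily number. Genes were placed on the RefSeq table of GRCh38.p14 by symbol (72 of the 76 names) or older symbol (4), and RefSeq starts were given for 64. Length is the sum of blocks. Genes named with full values were the 10 best shared peaks by fold, genes with 3 or more peaks, the 5 longest and the 5 weakest shared peaks, the widest spliced ones, up to 3 genes per class, and the 5 highest genes of each single list; the others are given by their folds, and a few members are not reported here by name. No test was run, since 2 lists allow none and peaks are not replicates. Wilson intervals cover counting error only, and those on peaks ignore that several peaks can come from the same gene. The overlap and midpoint functions were tested on simulated data. Tables were handled in pandas 2.3.3 with numpy 2.4.6 under Python 3.11.15, rank correlations computed in scipy 1.17.1, and plots drawn in matplotlib 3.10.9.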

Additional observations from a re-analysis of the deposited data

How the results depend on the processing

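Values moved beyond the spread between the lists, or beyond the Wilson interval, in 14 of 27 comparisons with an alternative, not counting those without a replicate, whose distance from a mean of 2 is fixed by the SD. That spread rests on 2 lists that share many peaks, so this count is no measure of robustness. A 5′-end share going from 21.1% to 20.3% was counted as moved. A share of SLC peaks at shared sites going from 61.0% to 73.5% was not. When each list was limited to the 50% of its peaks with the smallest p-values, the SLC median fold was 2.49 (4.12 for other peaks), against 3.22 with all peaks, the median length 217.5 nt (211 for others), the spliced share 44.8% (34.7%), the 5′-end share 24.2% (27.6%) and the share of genes in both lists 64.3% (49.5%). In shared peaks alone, the SLC median fold was 2.81, the median length 209.8 nt, the spliced share 40.6% and the 5′-end share 27.7%. Other shared peaks had median folds of 3.74 in replicate 1 and 3.95 in replicate 2, and median lengths of 181 and 210 nt. Of these other shared peaks, 620 of 2133 and 697 of 2104 were spliced, and 630 and 592 lay at the 5′ end. The 5′-end share, 21.1% as reported, was 31.1% within 500 nt, 28.9% by the peak's edge (an alternative chosen after seeing the data) and 20.3% without the 3 genes that are not carriers. With 80% reciprocal overlap, which fewer peaks pass by construction, 19.7% of SLC genes and a mean of 19.4% of SLC peaks were shared. For the other moves the cause was not tested. No share over other peaks is given for the 500 nt window or the 80% overlap, so nothing particular to SLC peaks is read from those. Without either replicate the median fold was 3.16 to 3.28. No paired analysis was possible because each peak list comes from an IP sample and input values were not analysed here. With read depth not known, a site missing from a list may have had too few reads to be called.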
